A study of Mus musculus with 121 samples.

Results

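The mouse genome has 5 dopamine receptor genes, Drd1, Drd2, Drd3, Drd4 and Drd5. They were picked by gene symbol from the deposited table of raw counts, where they are 5 of 24412 genes. Drd1 and Drd5 encode the D1-class receptors, which couple to the stimulatory G proteins Gs and Golf and raise cyclic AMP. Drd2, Drd3 and Drd4 encode the D2-class receptors, which couple to inhibitory G proteins. Striatal projection neurons carry mostly either Drd1 or Drd2, and Drd2 is also the autoreceptor of midbrain dopamine neurons.

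The libraries come from male mice in which Gdnf, the gene of a growth factor for dopamine neurons, can be raised from its own locus. In the cHyper allele, Cre recombinase flips a cassette placed after the Gdnf stop codon, and this replaces the native 3' untranslated region. Each model has WT, HET and HOM mice with 0, 1 or 2 copies of the allele. Prefrontal cortex (PFC), striatum (STR) and substantia nigra (SN) gave 121 libraries in all, and 15 of 21 Nestin-Cre mice and 21 of 22 AAV-Cre mice had libraries of all 3 regions.

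The Nestin-Cre model held 21 mice and 56 libraries. These mice were labelled 2 months old and untreated, and every genotype, WT included, carried Nestin-Cre, whose promoter is active in the central nervous system from mid-gestation. The groups were Gdnf^wt/wt;Nestin-Cre (8 PFC, 6 STR and 6 SN libraries), Gdnf^wt/cHyper;Nestin-Cre (6, 7 and 7) and Gdnf^cHyper/cHyper;Nestin-Cre (4, 6 and 6). The AAV-Cre model held 22 mice and 65 libraries. Those mice received AAV-Cre into the striatum on both sides at 3-5 months and were collected at 5-7 months, WT littermates included. The groups were Gdnf^wt/wt;AAV-Cre (7 libraries in each region), Gdnf^wt/cHyper;AAV-Cre (7 in each) and Gdnf^cHyper/cHyper;AAV-Cre (8 PFC, 7 STR and 8 SN). Neither design has animals without Cre. In the AAV-Cre model the injection targeted STR alone, so PFC and SN were not injected directly.

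Library totals ran from 9869584 to 26750905 counts, with a median of 17885830. Levels below are cpm, the count over the library's total scaled to 1e6, unless a value per kilobase of exon is named. The tissue labels were checked against marker genes. Summed over 16 genes of striatal projection neurons, none of them a dopamine receptor gene, the median library had 12898 cpm in STR, 1328 cpm in PFC and 491 cpm in SN. Ppp1r1b was the most abundant of them in STR, Gng7 in PFC and Adcy5 in SN, and 0 of the 16 had a zero count in any library. For 12 genes of dopamine neurons the medians were 4574 cpm in SN, led by Slc6a3, 119 cpm in STR and 97.8 cpm in PFC, both led by Aldh1a1. Among these 12, Foxa2 was 0 in every PFC library. Slc6a3, Pitx3, En1 and Lmx1b were 0 in some PFC libraries, and Pitx3, En1, Foxa2 and Lmx1b in some STR libraries. For 8 genes of cortical excitatory neurons the medians were 2186 cpm in PFC and 108 cpm in STR, both led by Slc17a7, and 249 cpm in SN, led by Rasgrf2. Emx1 and Fezf2 were 0 in some SN libraries. The labels of all 3 regions matched these lists.

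Some libraries need naming before the results. The PFC library of mouse M4575 carries the label WT, whereas its STR and SN libraries carry HOM. Each library was kept under its own label, and where leaving the mouse out changed a call, both values are given. The SN libraries of M4566 (Nestin-Cre HET) and M3587 (AAV-Cre WT) stood apart. Their striatal projection neuron genes summed to 2537 and 1452 cpm, against 454 to 539 and 474 to 620.1 cpm in the other libraries of their groups. Their Drd1 levels of 58.7 cpm (1341 counts) and 27.9 cpm (572 counts) were 11.7 and 4.72 times the highest other value of the group. The Drd1 tests in SN that these 2 libraries moved most are therefore given with and without them. In bulk tissue, fewer cells that carry a receptor and less RNA per cell cannot be told apart.

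Gdnf itself was checked first. In AAV-Cre STR it had a lowest, median and highest level of 5.45, 6.74 and 7.45 cpm in WT, 6.46, 7.37 and 9.42 cpm in HET, and 7.71, 8.67 and 9.98 cpm in HOM. All 7 HOM libraries lay above all 7 WT libraries. The log2 fold change of HOM over WT was 0.40 ± 0.09 (SE; p 0.000344), and the p adjusted over all genes was 0.504, with 0.122 to 1 under the alternative settings. The 4867 exon bases counted for Gdnf may include the native untranslated region that the recombined allele replaces, so counts may understate Gdnf in HET and HOM. In Nestin-Cre STR the levels were 3.88, 5.98 and 7.21 cpm in WT, 4.04, 5.67 and 9.05 cpm in HET, and 5.79, 6.65 and 9.59 cpm in HOM. There the HOM difference was 0.28 ± 0.19 (p 0.162, adjusted p 0.784). In AAV-Cre STR the HET difference was 0.20 ± 0.09 (p 0.0459, adjusted p 1). In SN the medians of WT, HET and HOM were 0.452, 0.5259 and 0.705 cpm in the Nestin-Cre model, where 5 of 6 HOM libraries lay above all WT libraries. In AAV-Cre SN they were 0.232, 0.404 and 0.473 cpm. PFC had medians of 0.392, 0.355 and 0.133 cpm in the Nestin-Cre model, where 3 of 4 HOM libraries lay below all WT libraries, and of 1.02, 1.19 and 0.7099 cpm in the AAV-Cre model. The Nestin-Cre PFC values rest on 3 to 16 counts in WT and 1 to 9 in HOM, and the Nestin-Cre SN values on 4 to 11 and 7 to 16. Gdnf did not pass the expression filter in the genotype fits of Nestin-Cre PFC or of SN in either model. Its genotype differences there were not tested.

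The receptors differ in gene structure, which bears on how their counts can be compared. On build mm10, Drd1 lies at chr13:54051183-54055658 on the minus strand with 3 exons and 3581 exon bases in the count table. Drd5 lies at chr5:38319509-38322523 on the plus strand as 1 exon of 3015 bases, and an antisense gene, Gm26560, overlaps it. The strand setting of the read counting is not given in the sources used here, so reads of Drd5 and Gm26560 cannot be told apart. Drd2 lies at chr9:49340662-49407214 (plus, 8 exons, 1549 bases), Drd3 at chr16:43762221-43822932 (plus, 7 exons, 1455 bases) and Drd4 at chr7:141292006-141295001 (plus, 4 exons, 1336 bases). The table's exons covered 60.8% of the exon bases that GENCODE gives Drd2 and 39.5% of those of Drd4. In both genes most of the missing part is at the 3' end, 963 bases for Drd2 and 1463 for Drd4, where a poly(A)-selected library has many of its reads. Levels of Drd2 and Drd4 relative to the other receptors may therefore be too low, while comparisons of 1 gene between libraries do not use exon lengths.

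Per kilobase of exon, Drd1 and Drd2 were the most abundant receptors in PFC and STR of WT mice, and Drd2 stood alone in SN. In Nestin-Cre PFC the mean levels were 8.40 cpm per kb for Drd1, 6.29 for Drd2, 1.36 for Drd5, 0.241 for Drd3 and 0.138 for Drd4. Drd1 exceeded Drd2 in 7 of 8 of those libraries. In Nestin-Cre STR Drd2 led with 128 cpm per kb, ahead of Drd1 with 104, in 6 of 6 libraries, although the ranges overlapped. Together they made up 54.7% and 44.3% of the receptor sum there. In Nestin-Cre SN Drd2 had 30.8 cpm per kb, 94.1% of the sum, and Drd1 followed with 0.969.

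The AAV-Cre WT mice gave the same leading receptors, with Drd2 first in all 3 regions. In PFC, Drd2 had 17.3 cpm per kb and Drd1 12.5, with Drd2 above Drd1 in 7 of 7 libraries. In STR they had 135 and 86.0 cpm per kb, 60.5% and 38.4% of the receptor sum, without overlap of the ranges. In SN, Drd2 had 49.5 cpm per kb and 93.4% of the sum. Drd5 followed in each region of both models, at 0.751 to 1.41 cpm per kb, ahead of Drd3. Drd4 was last in every WT group, with 0.0146 to 0.138 cpm per kb.

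**Figure D1:**
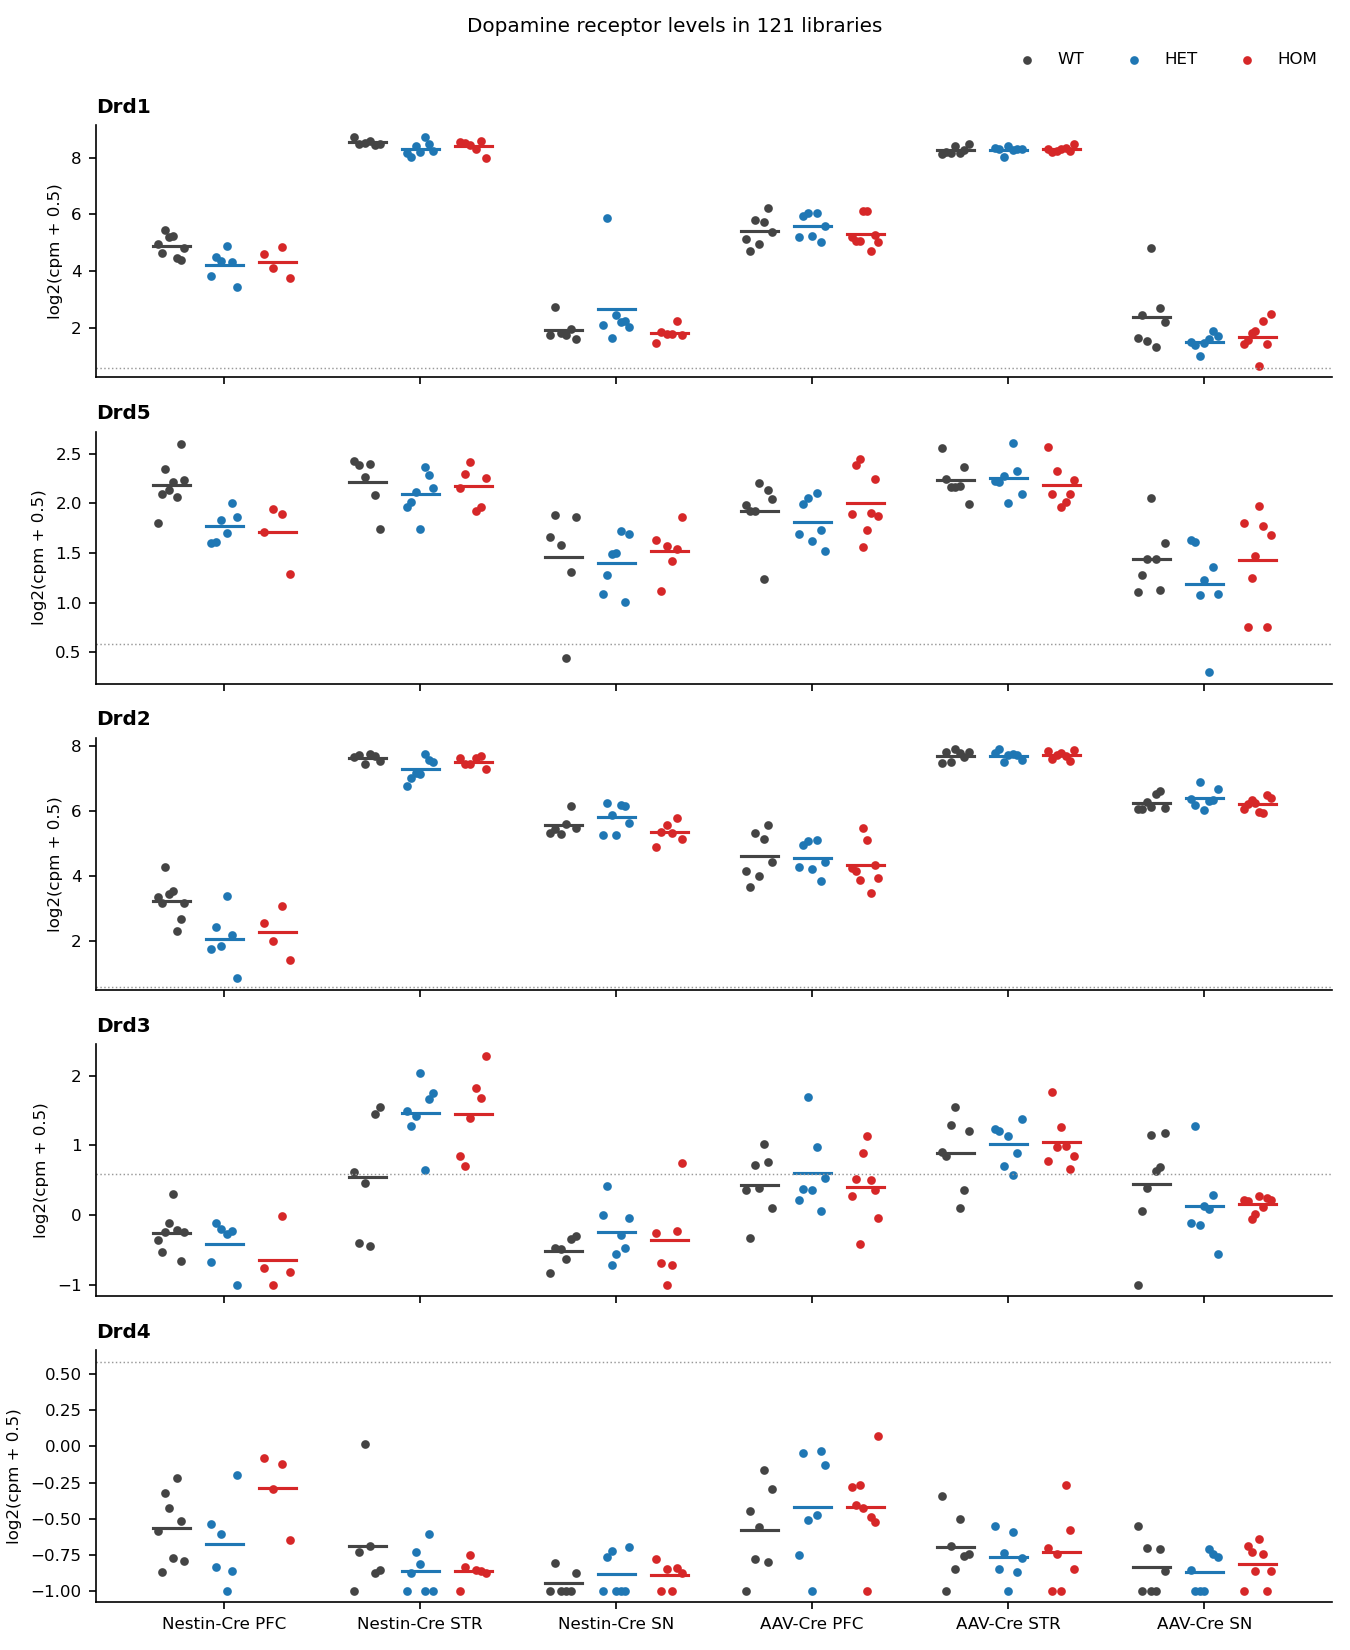
Levels of the 5 receptors in all 121 libraries, as log2 of cpm plus 0.5, by model, region and genotype. Bars mark group means and the dotted line marks 1 cpm.

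The D1-class receptors were first compared between regions in WT mice. Drd1 had its highest level in STR, an intermediate level in PFC and its lowest in SN. In the Nestin-Cre model, the lowest, median and highest levels were 349.9, 363 and 426 cpm in STR, 20.4, 29.1 and 43.1 cpm in PFC, and 2.54, 2.94 and 6.10 cpm in SN. The AAV-Cre levels were 277, 296 and 357 cpm in STR, 25.4, 40.8 and 73.4 cpm in PFC, and 2.00, 4.09 and 27.9 cpm in SN. The ranges of the 3 regions did not overlap in the Nestin-Cre model. In the AAV-Cre model only the SN library of M3587, with 27.9 cpm, reached the PFC range. The mean of STR was 12.4 times that of PFC in the Nestin-Cre model and 6.89 times in the AAV-Cre model. PFC in turn was 8.67 times SN in the Nestin-Cre model.

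Of the 4 receptors tested between regions, 3 were called between STR and PFC in the Nestin-Cre model, where 68.1% of all genes were called. Between SN and PFC 3 of 4 were called (78.8% of all genes), and between SN and STR 4 of 4 (76.2%). In the AAV-Cre model the calls were 2 of 4 for STR against PFC (65.6% of all genes), 3 of 4 for SN against PFC (74.1%) and 3 of 4 for SN against STR (75.6%). Most genes differed between these tissues, so a call alone says little about the receptors.

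For Drd1, the log2 fold change of STR over PFC was 3.60 ± 0.16 in the Nestin-Cre model (adjusted p 3.7e-14, 6 of 6 STR libraries above all PFC libraries). The AAV-Cre value was 2.74 ± 0.38 (adjusted p 1.4e-06, 7 of 7). SN lay below PFC by -3.33 ± 0.20 (adjusted p 1.9e-12, 6 of 6) and -2.71 ± 0.41 (adjusted p 4.1e-06, 6 of 7 below all PFC libraries). Without the SN library of M3587 the second value was -3.69. DESeq2 gave -1.50 for it with all libraries (adjusted p 0.0439; 1.6e-178 to 0.0439 over the alternatives). SN lay below STR by -6.93 ± 0.22 (adjusted p 8.5e-17, 6 of 6) and -5.45 ± 0.44 (adjusted p 1.6e-10, 7 of 7; -6.43 without M3587). The rank of the 3 regions thus held with and without that library.

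Drd5, the other D1-class receptor, was low in all regions. In Nestin-Cre WT mice its lowest, median and highest levels were 2.98, 4.01 and 5.54 cpm in PFC, 2.83, 4.51 and 4.87 cpm in STR, and 0.861, 2.57 and 3.20 cpm in SN. The corresponding AAV-Cre levels were 1.86, 3.45 and 4.10 cpm in PFC, 3.48, 4.0 and 5.38 cpm in STR, and 1.66, 2.2 and 3.66 cpm in SN. The ranges overlapped. Unlike Drd1, Drd5 showed no called difference between STR and PFC with all libraries, at 0.01 ± 0.20 (adjusted p 0.983) and 0.30 ± 0.17 (adjusted p 0.141). Without M3587 the second difference was called, with an adjusted p of 0.0897, against 0.0897 to 0.243 over the alternatives. SN was lower than PFC by -0.96 ± 0.21 (adjusted p 0.000322, 4 of 6 below all PFC libraries) in the Nestin-Cre model and by -0.64 ± 0.18 (adjusted p 0.00263, 2 of 7) in the AAV-Cre model. SN was lower than STR by -0.97 ± 0.22 (adjusted p 0.000554, 4 of 6 below all STR libraries) and -0.94 ± 0.17 (adjusted p 4.4e-05, 6 of 7). Without M3587 the AAV-Cre values were -0.80 against PFC and -1.10 against STR, both still called.

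Drd2, the receptor of the other class of striatal projection neurons and of dopamine neurons, was highest in STR and second in SN. In the Nestin-Cre model the lowest, median and highest WT levels were 175, 203 and 217 cpm in STR, 39.1, 43.6 and 71.5 cpm in SN, and 4.46, 9.19 and 19.0 cpm in PFC. The AAV-Cre libraries had 178, 222 and 238 cpm in STR, 66.4, 69.3 and 97.9 cpm in SN, and 12.3, 21.2 and 47.1 cpm in PFC. No ranges of 2 regions overlapped within a model. STR lay above PFC by 4.30 ± 0.22 (adjusted p 3.2e-13, 6 of 6) and 2.93 ± 0.23 (adjusted p 1.6e-10, 7 of 7), ratios of means of 20.4 and 7.83. SN lay above PFC by 2.09 ± 0.21 (adjusted p 1.1e-08, 6 of 6) and 1.43 ± 0.22 (adjusted p 4.2e-06, 7 of 7), where Drd1 had the opposite sign. SN lay below STR by -2.21 ± 0.22 (adjusted p 1.0e-08, 6 of 6) and -1.50 ± 0.21 (adjusted p 1.1e-06, 7 of 7).

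Drd3 was near the detection limit. Its lowest, median and highest WT levels in STR were 0.238, 0.955 and 2.41 cpm in the Nestin-Cre model, from 4 to 50 counts, and 0.571, 1.36 and 2.44 cpm in the AAV-Cre model. In PFC they were 0.132, 0.345 and 0.731 cpm, and 0.294, 0.802 and 1.52 cpm. In SN they were 0.0591, 0.216 and 0.313 cpm, and 0, 1.05 and 1.77 cpm. The Nestin-Cre WT mice had more Drd3 in STR than in PFC (1.67 ± 0.45, adjusted p 0.00276, 4 of 6 STR libraries above all PFC libraries) and less in SN than in STR (-2.60 ± 0.54, adjusted p 0.000219). The AAV-Cre WT mice showed no called regional difference, with values of 0.64, 0.08 and -0.56 and adjusted p of 0.218, 0.881 and 0.243. Of these 3, the likelihood ratio test called STR against PFC and SN against STR. Over the 6 regional comparisons of both models it called 60004 genes, against 65682 by the quasi-likelihood test.

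Drd4 had 0 to 10 counts, 0 to 0.551 cpm, in all 121 libraries and did not pass the expression filter in any fit. With the filter removed, SN was below PFC (-2.92, adjusted p 0.00509) and below STR (-2.56, adjusted p 0.02) in Nestin-Cre WT mice, and below PFC (-1.61, adjusted p 0.0531) in AAV-Cre WT mice. These 3 values rest on 0 to 10 counts per library, and in Nestin-Cre WT STR M4529 had 0.512 cpm against 0 to 0.119 cpm in the others. In WT SN, 4 of 6 Nestin-Cre and 3 of 7 AAV-Cre libraries had 0 counts of Drd4. Over the 6 regional comparisons the fits without filter called 72019 genes, against 65682 with it.

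The WT mice of the 2 models differed from each other at several receptors. In PFC 4 of 4 receptors were called, 3 higher and 1 lower in the AAV-Cre model, beside 48.1% of all genes. In STR 1 of 4 was called, lower, beside 60.6% of all genes, and in SN 2 of 4, both higher, beside 60.5%. Drd2 was higher in AAV-Cre PFC by 1.40 ± 0.32 (adjusted p 0.000667, 7 of 7 above the Nestin-Cre mean) and in AAV-Cre SN by 0.66 ± 0.17 (adjusted p 0.00117, 7 of 7). Drd3 was higher in PFC by 1.27 ± 0.43 (adjusted p 0.0159, 5 of 7 above all Nestin-Cre libraries) and in SN by 2.19 ± 0.61 (adjusted p 0.00288, 6 of 7). Drd1 was lower in STR by -0.32 ± 0.10 (adjusted p 0.00511, 7 of 7 below the Nestin-Cre mean).

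A pair of these calls was borderline. Drd1 in PFC was higher by 0.53 ± 0.23 (adjusted p 0.0614, 6 of 7 above the Nestin-Cre mean), and without M4575 by 0.48 with an adjusted p of 0.102 (5.0e-08 to 0.102 over the alternatives). Drd5 in PFC was lower by -0.33 ± 0.16 (adjusted p 0.0839), which the likelihood ratio test (0.151) and the fit without filter (0.105) did not call. The range over its alternatives was 0.0847 to 0.151. Drd1 in SN was not called (1.03 ± 0.58, adjusted p 0.134), and without the libraries of M4566 and M3587 the value was 0.09. Age, source of Cre and injection differ together between the models and cannot be told apart. In PFC the summed striatal projection neuron genes were also higher in AAV-Cre WT mice, 1200 to 2788 cpm against 903 to 1584 cpm. In STR they ran lower in AAV-Cre WT mice, 10878.5 to 13988 cpm against 13254 to 16186 cpm, with overlap. In SN, oligodendrocyte genes had 13358 to 20641 cpm in AAV-Cre WT mice against 18528 to 32837 cpm in Nestin-Cre WT mice. Astrocyte genes there had 1213 to 1586 cpm against 1469 to 2392 cpm. Whether any of these account for the receptor differences was not tested.

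In PFC of Nestin-Cre mice, Drd1, Drd2 and Drd5 had lower means in HET and HOM than in WT, and no receptor was called. The lowest, median and highest Drd1 levels in HET were 10.3, 19.7 and 29.4 cpm, and the 4 HOM libraries had 23.6 (M4393), 16.7 (M4568), 28.6 (M4569) and 13.1 cpm (M4580), to be set against the WT values above. Drd2 had 1.31, 3.57 and 9.97 cpm in HET and 5.44, 3.53, 8.02 and 2.16 cpm in the same 4 HOM libraries. For Drd5 the values were 2.52, 2.90 and 3.49 cpm in HET and 2.77, 3.35, 3.21 and 1.95 cpm in HOM. The groups overlapped. For Drd1 4 of 6 HET and 2 of 4 HOM libraries lay below all WT libraries, for Drd2 4 and 2, and for Drd5 3 and 2. The HOM libraries of M4568 and M4580 were the 2 lowest for Drd1 and Drd2.

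With edgeR's quasi-likelihood test, 0 of 3 tested receptors were called in HET PFC, where 0% of all genes were called, and 0 of 3 in HOM PFC, where 0.25% were. At an unadjusted p under 0.05 the counts were 3 of 3 receptors in HET, beside 1398 of 14386 genes, and 3 of 3 in HOM, beside 1446 genes. The likelihood ratio test called Drd1 and Drd2 in both genotypes, beside 415 of 14386 genes in HET. DESeq2 called neither, beside 116 genes in HET and 227 in HOM. Over all 12 genotype comparisons the likelihood ratio test called 4145 genes, against 38 by the quasi-likelihood test. Drd5 had log2 fold changes of -0.49 ± 0.15 in HET (p 0.00292, adjusted p 0.27, 6 of 6 libraries under the mean of WT) and -0.55 ± 0.17 in HOM (p 0.00432, adjusted p 0.22, 4 of 4). Drd2 had -1.21 ± 0.37 in HET (p 0.00335) and -1.06 ± 0.43 in HOM (p 0.0218), and Drd1 -0.68 ± 0.22 (p 0.0049) and -0.58 ± 0.25 (p 0.0307). Leaving out 1 HOM library at a time moved the HOM values over -0.79 to -0.42 for Drd1, -1.44 to -0.82 for Drd2 and -0.66 to -0.41 for Drd5. Without M4568 or without M4580 the p of Drd1 and Drd2 rose above 0.05. Without M4575 the HET values were -0.73 for Drd1, -1.31 for Drd2 and -0.51 for Drd5, and the HOM values -0.63, -1.16 and -0.57, with 0 called. The shares of all genes called also hung on single libraries, with 91 genes in HET without M4575, 54 in HET without M4580, and 1 to 122 in HOM without 1 HOM library at a time. The summed striatal projection neuron genes had 700.0 to 994 cpm in HET and 694 to 1105 cpm in HOM, against 903 to 1584 cpm in WT. The oligodendrocyte genes had 3386 to 3961 cpm in HET and 2811 to 4658 cpm in HOM, against 3819 to 6469 cpm in WT. Whether tissue composition accounts for the receptor values was not tested.

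In STR of Nestin-Cre mice, Drd1 and Drd2 had lower means, and Drd3 higher means, in both HET and HOM than in WT. Drd1 ran from 258 to 419.6 cpm in HET (median 299) and from 254 to 384 cpm in HOM (median 359.5). Drd2 ran from 109 to 214 cpm in HET (median 144) and from 155 to 207 cpm in HOM (median 186). Drd3 ran from 1.07 to 3.60 cpm in HET (median 2.32) and from 1.14 to 4.38 cpm in HOM (median 2.41), about 2.02 and 2.08 times the WT mean. Every pair of groups overlapped. Below all WT libraries lay 5 of 7 HET and 2 of 6 HOM libraries for Drd1, and 4 of 7 and 3 of 6 for Drd2, and above all WT libraries lay 3 of 7 HET and 3 of 6 HOM libraries for Drd3. Drd5 had medians of 3.83 cpm in HET and 4.12 cpm in HOM.

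The quasi-likelihood test called 0 of 4 receptors in HET STR (0% of all genes called) and 0 of 4 in HOM STR (0%). Under an unadjusted p of 0.05 were 3 of 4 receptors in HET, beside 2513 of 14494 genes, and 1 of 4 in HOM, beside 670 genes. The likelihood ratio test called Drd2 and Drd3 in HET and Drd3 in HOM, and DESeq2 called 0. Over the 12 genotype comparisons these tests called 4145 and 1091 genes, against 38 by the quasi-likelihood test. In HET the log2 fold changes were -0.38 ± 0.14 for Drd2 (p 0.0113, adjusted p 0.209, 6 of 7 below the WT mean), -0.26 ± 0.12 for Drd1 (p 0.0366, adjusted p 0.267, 6 of 7) and 0.95 ± 0.44 for Drd3 (p 0.0426, adjusted p 0.275, 6 of 7 above). In HOM, Drd3 had 1.03 ± 0.45 (p 0.0328, adjusted p 0.784, 5 of 6 above), and 0.94 (p 0.0616) without M4575. Drd1 and Drd2 in HOM had -0.14 ± 0.12 and -0.13 ± 0.14. The striatal projection neuron genes had means of 14504 cpm in WT and 11438 cpm in HET. Other markers moved as well, with hippocampus genes at 244 to 480.0 cpm in HET against 159.9 to 297 cpm in WT and astrocyte genes at 927 to 1496 against 825 to 1098 cpm. M4566, with the lowest HET level of Drd1, had 18700.4 cpm of choroid plexus genes. Whether any of these bear on the receptors was not tested. With Drd3 raised in its mean, its level per kilobase was above that of Drd5 in HET (1.63 and 1.26 cpm per kb) and HOM (1.68 and 1.34), with overlap.

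In SN, the Drd1 values of both models turned on a single library. In the Nestin-Cre model Drd1 ran from 2.63 to 58.7 cpm in HET (median 4.11) and from 2.26 to 4.27 cpm in HOM (median 2.94). In the AAV-Cre model it ran from 1.51 to 3.22 cpm in HET (median 2.32) and from 1.08 to 5.06 cpm in HOM (median 2.74), with the WT group reaching 27.9 cpm. The groups overlapped in both models. Drd2, the main receptor of this region, had medians of 58.2 and 40.1 cpm in Nestin-Cre HET and HOM, and 79.8 and 74.6 cpm in AAV-Cre HET and HOM. Its groups overlapped with WT as well.

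By the quasi-likelihood test 0 of 3 receptors were called in Nestin-Cre HET SN (0% of all genes called), 0 of 3 in HOM SN (0%), and 0 of 4 in AAV-Cre HET SN (0%) and HOM SN (0%). An unadjusted p under 0.05 was reached by Drd1 alone, in Nestin-Cre HET (beside 1337 genes), AAV-Cre HET (694) and AAV-Cre HOM (1109), and by 0 of 3 receptors in Nestin-Cre HOM (608). The likelihood ratio test called Drd1 in these same 3 comparisons, beside 324 of 14813 genes in AAV-Cre HET and 218 in AAV-Cre HOM. Over all 12 genotype comparisons that test called 4145 genes, against 38 by the quasi-likelihood test. The fit of all regions called Drd1 in AAV-Cre HET, beside 22 of 15442 genes, and DESeq2 called 0 receptors. In Nestin-Cre HET, Drd1 had 1.76 ± 0.64 (p 0.0121, adjusted p 0.518), and 0.17 ± 0.21 (p 0.437) without M4566. In AAV-Cre HET it had -1.56 ± 0.48 (p 0.00332, adjusted p 0.946, 7 of 7 below the WT mean) and -0.60 ± 0.29 (p 0.04997) without M3587. In AAV-Cre HOM it had -1.28 ± 0.45 (p 0.00965, adjusted p 0.563, 8 of 8) and -0.32 ± 0.28 (p 0.266) without M3587. Drd2 had 0.25 ± 0.19 and -0.24 ± 0.20 in the Nestin-Cre model, and 0.16 ± 0.12 and -0.06 ± 0.12 in the AAV-Cre model. Without M4566 its Nestin-Cre HET value was 0.17, and without M3587 its AAV-Cre values were 0.14 and -0.08. Leaving out 1 library thus brought each of these 3 Drd1 values closer to 0.

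In PFC and STR of AAV-Cre mice, no receptor reached an unadjusted p under 0.05, and Drd1 and Drd2 spread more widely for their level in PFC than in STR. Drd1 in PFC ran from 32.2 to 65.4 cpm in HET (median 48.0) and from 25.3 to 69.0 cpm in HOM (median 34.9), and Drd2 from 14.0 to 34.3 cpm (median 21.2) and from 10.6 to 44.1 cpm (median 18.1). In STR, Drd1 ran from 258 to 336 cpm in HET (median 316) and from 296 to 354 cpm in HOM (median 317). Drd2 ran there from 183 to 238 cpm (median 209) and from 188 to 233 cpm (median 211). The WT, HET and HOM ranges overlapped for all 5 receptors. The quasi-likelihood test called 0 of 4 receptors in HET PFC (0% of all genes called), 0 of 4 in HOM PFC (0.0137%), 0 of 4 in HET STR (0%) and 0 of 4 in HOM STR (0%). At an unadjusted p under 0.05 the count was also 0 of 4 in each, beside 1806, 2074, 251 and 671 genes, and the likelihood ratio test and DESeq2 called 0. In the same order, the likelihood ratio test called 248, 429, 56 and 175 of all genes, and DESeq2 called 6, 184, 0 and 5.

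The sizes of these effects can be bounded in STR. For AAV-Cre STR the log2 fold changes of Drd1 were 0.02 ± 0.06 in HET and 0.04 ± 0.06 in HOM, with 95% intervals of -0.12 to 0.15 and -0.10 to 0.17. For Drd2 they were 0.00 ± 0.07 and 0.01 ± 0.07, with intervals of -0.15 to 0.15 and -0.14 to 0.16. The PFC intervals were wider, -0.33 to 0.65 and -0.54 to 0.41 for Drd1, and -0.76 to 0.50 and -0.88 to 0.34 for Drd2. Drd3 and Drd5 had values between -0.12 and 0.28 in these 4 comparisons.

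**Figure D2:**
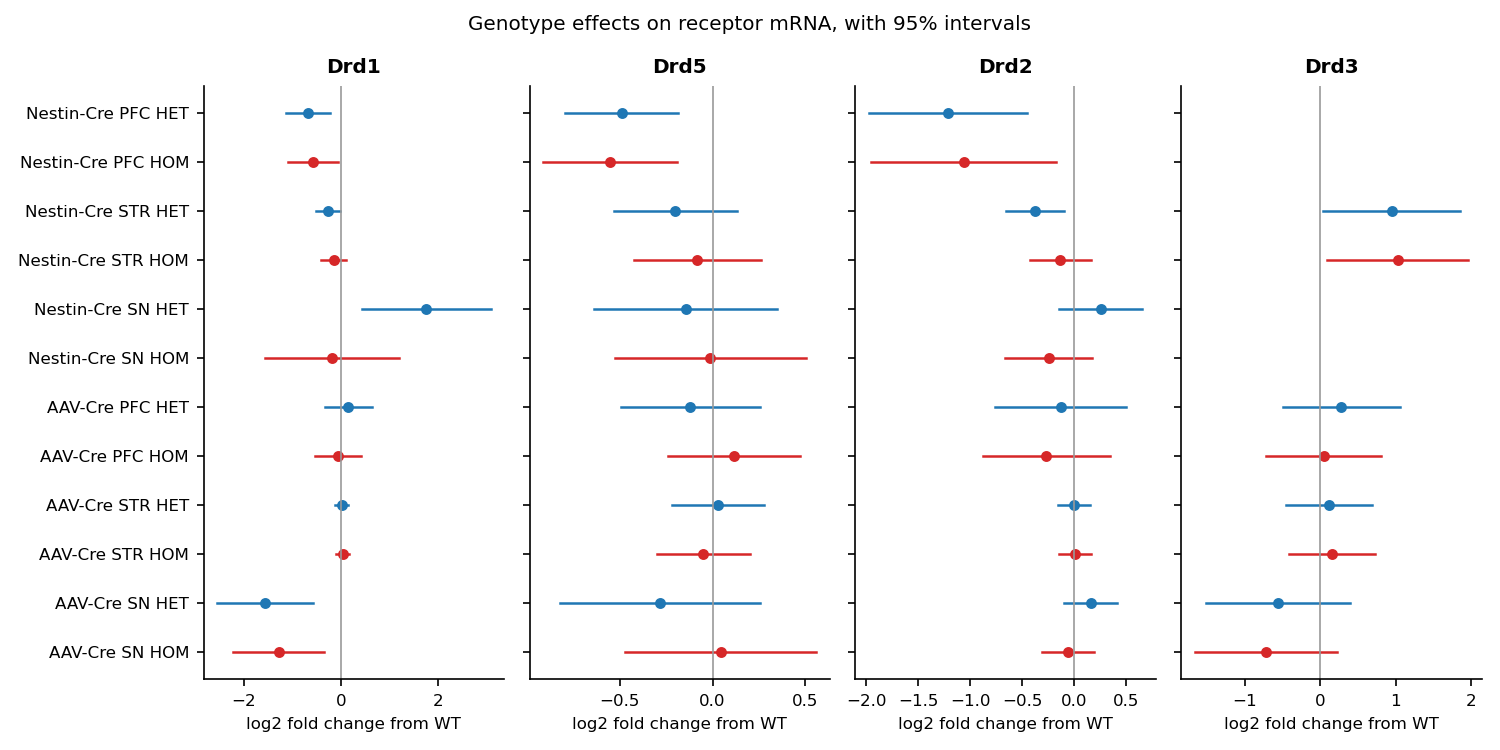
Log2 fold changes of HET and HOM over WT with 95% intervals for Drd1, Drd5, Drd2 and Drd3 in each model and region. Drd3 did not pass the expression filter in PFC and SN of the Nestin-Cre model, and 0 of 44 tests were called.

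Because Drd1 and Drd2 mark different striatal projection neurons, their log2 ratio was compared within each library. The mean WT ratio was 1.70 in PFC, 0.91 in STR and -3.80 in SN of the Nestin-Cre model, and 0.81, 0.56 and -4.04 in the AAV-Cre model. These ratios are of counts, not of levels per kilobase. In Nestin-Cre PFC the ratio ran from 1.18 to 2.26 in WT, from 1.56 to 2.96 in HET and from 1.83 to 2.59 in HOM. The ranges overlapped, and the highest WT value was that of M4575. Without this mouse the HOM and WT ranges did not overlap.

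In an exact permutation test over all arrangements, adjusted over the 12 genotype comparisons, 0 of 12 differences of the ratio had an adjusted p under 0.1. At an unadjusted p under 0.05 there were 4. Nestin-Cre PFC had differences of 0.61 in HET (p 0.014, adjusted p 0.149, 5 of 6 libraries over the mean of WT) and 0.49 in HOM (p 0.0263, adjusted p 0.149, 4 of 4). AAV-Cre PFC had 0.22 in HET (p 0.0495, adjusted p 0.149, 7 of 7 above) and 0.20 in HOM (p 0.0959). AAV-Cre SN had -1.10 in HET (p 0.0379, adjusted p 0.149, 7 of 7 below), and -0.65 (p 0.0781) without M3587. Without M4575 the Nestin-Cre PFC differences were 0.69 (p 0.00525) and 0.57 (p 0.00303), both with an adjusted p of 0.0315. Over their alternatives the adjusted p ran from 0.0315 to 0.168 for HET and from 0.0315 to 0.247 for HOM. The calls on the ratio in PFC therefore depend on whether that 1 mouse is included, and its PFC library was not tested under the other label. In STR the differences were 0.14 and -0.02 in the Nestin-Cre model and 0.01 and 0.02 in the AAV-Cre model.

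Whether a genotype effect on a receptor differed between regions was tested directly. The receptors called were 0 of 4 in each test. In the Nestin-Cre model, PFC against STR had 0 of 4 for HET (0% of all genes called) and 0 of 4 for HOM (0%), and SN against STR had 0 of 4 for HET (0.0649%) and 0 of 4 for HOM (0%). In the AAV-Cre model the same tests had 0 of 4 (0%), 0 of 4 (0%), 0 of 4 (0.00648%) and 0 of 4 (0.00648%). In the order given, 1, 2, 1, 0, 0, 0, 1 and 1 receptors had an unadjusted p under 0.05 in edgeR's quasi-likelihood test. The genes at that p numbered 817, 338, 1787, 430, 745, 712, 485 and 446. The likelihood ratio test called 6 of 32, Drd1 in 3 SN tests and Drd2 in 3 Nestin-Cre tests. Over these tests it called 1550 of all genes, against 12 by the quasi-likelihood test. Drd2 had a PFC effect below its STR effect by -0.85 ± 0.37 in Nestin-Cre HET (p 0.0244, adjusted p 0.864) and -0.94 ± 0.41 in HOM (p 0.0261, adjusted p 1). Drd3 had -2.17 ± 0.93 in HOM (p 0.0242, adjusted p 1). For Drd1 the SN effect exceeded the STR effect by 2.07 ± 0.58 in Nestin-Cre HET (p 0.000776, adjusted p 0.127), and by 0.45 (p 0.125) without M4566. In AAV-Cre mice the Drd1 values were -1.61 ± 0.45 in HET (p 0.000762) and -1.34 ± 0.44 in HOM (p 0.00315), and -0.63 (p 0.0797) and -0.36 without M3587.

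Whether a genotype effect differed between the 2 models was tested in the same way. The receptors called were 0 of 4 in PFC for HET (0.678% of all genes called) and 0 of 4 for HOM (3.54%), 0 of 4 in STR for HET (0.00673%) and 0 of 4 for HOM (0.0202%), and 0 of 4 in SN for HET (0%) and 0 of 4 for HOM (0%). By edgeR's quasi-likelihood test 2, 1, 2, 0, 1 and 0 receptors had an unadjusted p under 0.05, beside 2182, 2450, 2297, 991, 2120 and 501 genes. By likelihood ratio test 5 of 24 were called, Drd1 and Drd2 in PFC for both genotypes and Drd1 in SN for HET. That test called 3116 of all genes over these comparisons, against 627 by the quasi-likelihood test. In PFC, the AAV-Cre HET effect exceeded the Nestin-Cre HET effect by 0.84 ± 0.34 for Drd1 (p 0.0189, adjusted p 0.245) and 1.11 ± 0.50 for Drd2 (p 0.0322, adjusted p 0.288). For Drd5 the HOM effects in PFC differed by 0.68 ± 0.25 (p 0.01, adjusted p 0.156). In STR the HET effects differed by 0.28 ± 0.13 for Drd1 (p 0.0418, adjusted p 0.308) and 0.38 ± 0.15 for Drd2 (p 0.0192, adjusted p 0.258). The largest value, -3.32 ± 0.82 for Drd1 in SN of HET mice (p 0.000225, adjusted p 0.264), was -0.78 ± 0.37 (p 0.0425) without M4566 and M3587. The lower receptor means of Nestin-Cre HET mice were thus not called as different from the AAV-Cre effects.

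Across libraries, Drd1 and Drd2 of PFC moved together and with the striatal projection neuron genes. With group means removed, Drd1 and Drd2 had a Pearson r of 0.950 in 18 Nestin-Cre PFC libraries (Spearman rho 0.946) and of 0.980 in 22 AAV-Cre PFC libraries (rho 0.949). Both p were 1e-05, the smallest that 100000 permutations can give. Without the 2 libraries farthest from the median of the first gene the values were 0.925 and 0.981. In STR the coefficients were 0.667 (permutation p 0.00214, rho 0.623, p 0.00507) and 0.683 (permutation p 0.00052, rho 0.657, p 0.00168), and 0.506 and 0.640 without the 2 farthest. In SN they were 0.367 (permutation p 0.126, rho 0.339) and -0.0963 (permutation p 0.676, rho 0.0412). Adjusted over the 16 relations tested, the p of r in PFC and STR were 1.8e-05 to 0.00311.

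The summed striatal projection neuron genes tracked Drd1 in both PFC and SN. In PFC, r was 0.934 for Drd1 (rho 0.959) and 0.902 for Drd2 (rho 0.913) in the Nestin-Cre model, and 0.965 (rho 0.923) and 0.974 (rho 0.961) in the AAV-Cre model, each with a permutation p of 1e-05. Without the 2 farthest libraries these were 0.937, 0.871, 0.953 and 0.964. In SN, r with Drd1 was 0.968 (rho 0.856) and 0.920 (rho 0.866), also at 1e-05, and 0.794 and 0.836 without the 2 farthest, which include M4566 and M3587. Drd2 of SN had 0.458 (permutation p 0.033, adjusted p 0.0406, rho 0.458) and -0.0365 (permutation p 0.886, rho 0.219) with the striatal list, and the first fell to 0.327 without the 2 farthest. With the dopamine neuron list Drd2 of SN had 0.611 in the Nestin-Cre model (permutation p 0.00541, adjusted p 0.00721, rho 0.593) and 0.905 in the AAV-Cre model (permutation p 1e-05, rho 0.916). Those values were 0.670 and 0.953 without the 2 farthest. Drd1 was not tested against the dopamine neuron list, and no test compared these coefficients with each other. Whether the dissected tissue or expression within cells sets these relations was not tested.

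**Figure D3:**
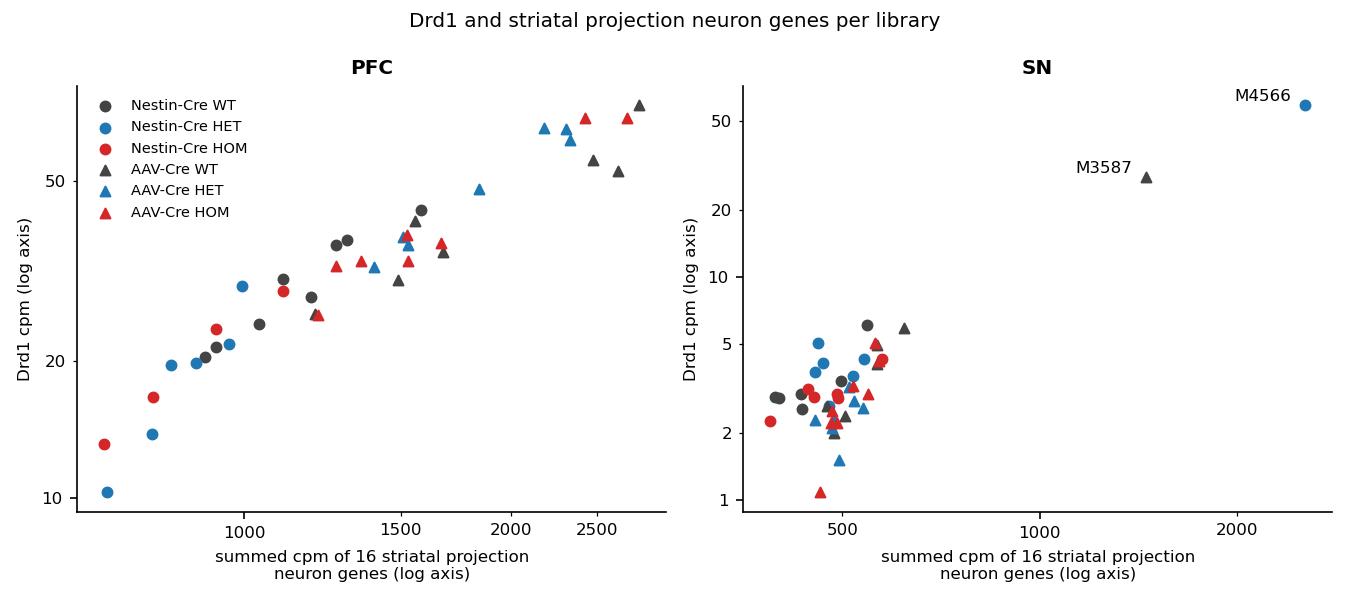
Drd1 against the summed cpm of 16 striatal projection neuron genes in each PFC and SN library, on log axes. With group means removed, r was 0.934 and 0.965 in PFC and 0.968 and 0.920 in SN of the Nestin-Cre and AAV-Cre models.

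Other tissue markers were summed for the same libraries. The 4 D1-type genes had medians of 530.1 cpm in STR (led by Tac1), 131 cpm in PFC (Pdyn) and 52.2 cpm in SN (Tac1). The 5 D2-type genes, led by Penk throughout, had 2425, 199 and 89.5 cpm. In Nestin-Cre PFC the D2-type mean was 0.616 of WT in HET and 0.655 in HOM, and the D1-type mean 0.812 and 0.958, beside 0.449 and 0.491 for Drd2 and 0.636 and 0.682 for Drd1. Medians in PFC, STR and SN were 4285, 8279 and 20285 cpm for oligodendrocytes (Mbp), 1147, 983 and 1391 cpm for astrocytes (Slc1a3, and Aqp4 in SN), and 139, 182 and 163 cpm for microglia (Cx3cr1). They were 205, 273 and 100.4 cpm for hippocampus (Wfs1), 23.0, 36.2 and 47.1 cpm for thalamus (Prkcd, and Tcf7l2 in SN), and 91.2, 52.5 and 10.1 cpm for olfactory bulb (Cdhr1, with Eomes and Tbx21 at 0 in some libraries of each region). Choroid plexus genes (Ttr; Ttr and Folr1 at 0 in some PFC libraries, Folr1 in some STR libraries) had medians of 6.40, 82.8 and 19.1 cpm and highest values of 1183, 18700.4 and 20716 cpm. What set these sums in single libraries was not tested.

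A list of 36 genes of receptor signalling was counted beside the receptors. Of these, 0 were called in any of the 12 genotype comparisons. At an unadjusted p under 0.05 in edgeR's quasi-likelihood test the Nestin-Cre counts were 8 in PFC HET, 8 in PFC HOM, 10 in STR HET, 0 in STR HOM, 6 in SN HET and 1 in SN HOM. The AAV-Cre counts were 8, 4, 1, 3, 6 and 6 in that order. Of all genes, the same p was reached in HET and HOM by 1398 and 1446 of 14386 in Nestin-Cre PFC, 2513 and 670 of 14494 in STR, and 1337 and 608 of 14873 in SN. In the AAV-Cre model it was reached by 1806 and 2074 of 14628 in PFC, 251 and 671 of 14655 in STR, and 694 and 1109 of 14813 in SN. The 10 genes of D1-class coupling had median log2 fold changes in HET and HOM of -0.16 and -0.19 in Nestin-Cre PFC, -0.21 and -0.05 in STR, and 0.35 and 0.09 in SN. The AAV-Cre medians were -0.02 and -0.05 in PFC, 0.03 and 0.02 in STR, and -0.18 and -0.17 in SN, while the medians of all genes lay between -0.00332 and 0.00997. The 8 genes of D2-class coupling had medians of 0.02 and -0.04 in Nestin-Cre PFC, 0.06 and 0.06 in STR, and 0.11 and 0.06 in SN. Their AAV-Cre medians were 0.10 and 0.14 in PFC, 0.01 and 0.06 in STR, and -0.00163 and -0.03 in SN. The striatal projection neuron sums had lower means than WT in Nestin-Cre PFC and STR of both genotypes. Ppp1r1b, Pde10a, Adcy5 and Gng7 are in both that list and the D1-class coupling list. The D1-class medians are therefore not independent of these sums, and a link beyond the shared genes was not tested. The SN counts and medians hold the libraries of M4566 and M3587 and were not repeated without them. The 2 genes with the lowest p were Ppp1r1b, which encodes DARPP-32, in Nestin-Cre PFC HET (-0.86 ± 0.18, p 8.3e-05, adjusted p 0.126) and Prkar2b, a regulatory subunit of protein kinase A, in AAV-Cre SN HOM (-0.21 ± 0.05, p 0.000515, adjusted p 0.538). In the interactions of genotype and model, 1 of 36 genes was called in 1 test, Grk3 in PFC of HOM mice (-0.33 ± 0.08, adjusted p 0.0319), where 3.54% of all genes were called. Between the WT mice of the 2 models, 16 of 36 were higher and 14 lower in AAV-Cre PFC (23.9% and 24.2% of all genes). In STR 6 were higher and 13 lower (31% and 29.6%), and in SN 19 and 4 (29.3% and 31.2%). Grk3, a kinase that desensitizes receptors, was named after its values were seen.

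Between regions, the signalling genes were counted by receptor class. In Nestin-Cre WT mice, 14 of 36 were higher and 17 lower in STR than in PFC, beside 34.2% and 34% of all genes. Of the 10 genes of D1-class coupling 7 were higher and 3 lower (median 2.29), and of the 8 of D2-class coupling 0 were higher and 6 lower (median -0.72). In SN against STR, 11 of 36 were higher and 24 lower (37.8% and 38.3% of all genes), with D1-class coupling at 2 higher and 8 lower (median -3.32) and D2-class coupling at 5 and 3 (median 0.47). In SN against PFC, 3 of 36 were higher and 29 lower (37.6% and 41.2% of all genes), with 0 higher and 8 lower for D1-class coupling (median -0.97) and 1 and 6 for D2-class coupling (median -1.06). Most D2-class coupling genes were thus lower in STR than in PFC, while Drd2 was higher there. AAV-Cre WT mice had 15 higher and 20 lower for STR against PFC (33.8% and 31.8% of all genes), with D1-class coupling at 7 and 3 (median 1.795) and D2-class coupling at 1 and 6 (median -0.56). For SN against PFC they had 7 and 26 (37.7% and 36.4%), with 2 and 8 (median -0.69) and 3 and 4 (median -0.06). For SN against STR they had 14 and 19 (39.7% and 35.9%), with 3 and 7 (median -2.52) and 6 and 1 (median 0.36). The D1-class coupling list shares Ppp1r1b, Pde10a, Adcy5 and Gng7 with the striatal projection neuron list, so its regional values partly repeat that list. Whether a receptor class differed from all genes was not tested.

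The genes whose group means were most like those of a receptor were listed over all 18 groups, for 15176 genes (15177 for Drd4). For Drd2 they were Pard3 (r 0.987), Clic6 (0.983) and Gpr149 (0.981), and for Drd5 Zfp385b (0.959), Mcm5 (0.954) and Asb11 (0.954). For Drd4 they were Tbc1d30 (0.913), Tbc1d22a (0.909) and Tcap (0.908). Over the 40 STR libraries with group means removed, and 14098 genes, Drd2 was most like Zfp385b (0.888), the adenosine receptor gene Adora2a (0.885) and Smpd3 (0.863). Drd3 was most like Cntnap5b (0.834), Pcdh17 (0.830) and Prkg1 (0.798), and Drd5 like Sncb (0.703), Cadm4 (0.696) and Kcnmb4 (0.690). These are the highest coefficients among the genes compared, and no p is attached to them.

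The promoters of the receptors were read, and windows are shown for Drd1 and Drd2, the 2 genes that moved together in PFC and STR. Whether promoter sites bear on that joint movement was not tested. The receptors have 6 promoter entries of 300 bases, 2 of them for Drd1. Their GC content was 42.0 to 70.3%, with a median of 52.7% over 32851 promoters. The GC box GGGCGG, searched on both strands, was found in entries of Drd1, Drd2, Drd4 and Drd5 and in none of Drd3, against 35.7% of all promoters. The TATA box TATAAA (13.6% of all promoters) and the cyclic AMP element TGACGTCA (1.79%) were found in none of the 6. The windows below are from RefSeq on build GRCm38.p6, and capitals mark GGGCGG or its reverse complement CCGCCC. They are on the minus strand at chr13:54054896-54054925 and chr13:54055625-54055654 for Drd1, and on the plus strand at chr9:49340298-49340327 and chr9:49340335-49340364 for Drd2. A match is a description and does not show that the site is used.
Drd1 first entry: gaaccctcctggGGGCGGgggcagcaatct
Drd1 second entry: aagcgccttggcGGGCGGagcgcggagagc
Drd2 first site: ggcctgtcccagGGGCGGggttcccgggcg
Drd2 second site: gccagggtgaccCCGCCCcctccctcctgc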

How the data were processed

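The deposited raw counts of the authors (reads per gene, 24412 genes by 121 libraries) were used as they stand. By the submitters' notes, bcl2fastq 2.20.0.422, STAR 2.5.2b on mm10 and featureCounts 1.5.1 preceded the table. A gene entered a fit if 3 or more of its libraries reached 1 cpm, and normalization was by TMM. edgeR 4.0.16 in R 4.3.3 (limma 3.58.1) was used with trended dispersions and its quasi-likelihood F test (legacy method, 2-sided). Genotypes were compared within 1 model and region, WT regions within a model, WT mice between models within a region, and interactions in fits of all groups concerned. All p were adjusted by Benjamini-Hochberg over all genes of the fit, and a gene was called at an adjusted p under 0.1. HET and HOM comparisons share their WT libraries. Values after ± are standard errors, taken as the log2 fold change divided by the square root of F. DESeq2 1.42.0 was an alternative. Correlations, ratios (0.5 added to each count) and tables were made with Python 3.11.15, numpy 2.4.6, scipy 1.17.1, pandas 2.3.3 and matplotlib 3.10.9. Correlations were of log2 of cpm plus 0.5 with group means removed and used 100000 permutations over the libraries of 1 model and region, and the ratio an exact permutation test, both 2-sided.

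The receptors and the gene lists were chosen with earlier results of these data known. The lists hold 16 striatal projection neuron, 4 D1-type, 5 D2-type, 12 dopamine neuron, 8 cortical excitatory neuron, 4 olfactory bulb, 4 hippocampus, 3 thalamus, 7 oligodendrocyte, 3 astrocyte, 3 microglia and 3 choroid plexus genes, and 36 signalling genes. Some genes are in more than 1 list. Except for Grk3, genes beyond the receptors and Gdnf were named by rule, as the 2 lowest p of the signalling list over the 12 genotype comparisons, the most abundant marker of a list, markers at 0, and the 3 most similar genes of a receptor. Some of the results under this rule are not reported here. No per-sample column of the labels was left unused (0).

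Region libraries carrying the same mouse number were taken to come from the same animals. With group means removed over 15675 genes, libraries of 1 mouse had a median r of 0.279 between PFC and STR in the Nestin-Cre model and 0.257 in the AAV-Cre model, against -0.0122 and -0.0101 for different mice. Between PFC and SN the medians were 0.18 and 0.181. Between STR and SN they were 0.241 and 0.202, with lowest values of -0.151 and -0.197 and r over 0.1 in 14 of 18 and 15 of 21 mice. Among 354 pairs of libraries of 1 group the lowest chi-square per gene was 4.49, with a median of 14.9, so no 2 libraries of 1 group were copies. Pairs across groups were not compared.

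Alternatives were the edgeR likelihood ratio test, the current quasi-likelihood method, DESeq2, DESeq2 size factors in edgeR, no expression filter, an adjusted p under 0.05, fits of 2 genotypes only, 1 fit of all regions, the mouse as replicate block, leaving out M4575 and leaving out each HOM library of Nestin-Cre PFC. Leaving out the SN libraries of M4566 and M3587 was chosen after the data were seen. DESeq2 gave no adjusted p for 8 of 44 genotype tests. Promoters span 250 bases before to 50 after the start.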

Additional observations from a re-analysis of the deposited data

Results flagged for a closer look

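Libraries were tested for standing apart from the rest of their group, which chance gives in about 1 in 20 groups. It happened in 19 of 126 groups for the receptors, Gdnf and the ratio, and in 32 of 216 for the marker lists. Drd1 of M4394 was 6.10 cpm in Nestin-Cre WT SN, where the others had 2.54 to 3.41. Drd1 of M4566 was 58.7 cpm in Nestin-Cre HET SN, with 2.63 to 5.03 in the others. M3610 had the lowest Drd1 in AAV-Cre HET STR, 258 cpm against 308 to 336. M3587 had the highest Drd1 in AAV-Cre WT SN, 27.9 cpm against 2.00 to 5.92. Drd2 of M4394 was 19.0 cpm in Nestin-Cre WT PFC, with 4.46 to 11.1 in the others. Drd2 of M4609 was 71.5 cpm in Nestin-Cre WT SN, with 39.1 to 48.4 in the others. M4627 had a Drd3 level of 1.18 cpm in Nestin-Cre HOM SN, against 0 to 0.351. M3610 had a Drd3 level of 2.74 cpm in AAV-Cre HET PFC, against 0.538 to 1.46. M3586 had a Drd3 level of 1.91 cpm in AAV-Cre HET SN, against 0.176 to 0.721. Drd4 of M4529 was 0.512 cpm in Nestin-Cre WT STR, with 0 to 0.119 in the others. Drd5 of M3588 was 1.86 cpm in AAV-Cre WT PFC, below the 3.28 to 4.10 of the others. Drd5 of M3587 was 3.66 cpm in AAV-Cre WT SN, above the 1.66 to 2.52 of the others.

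Gdnf stood apart in 3 libraries. M4580 had 0.626 cpm in Nestin-Cre HOM PFC, against 0.0893 to 0.139. M4566 had 1.66 cpm in Nestin-Cre HET SN, against 0.299 to 0.667. M3587 had 1.07 cpm in AAV-Cre WT SN, against 0.101 to 0.335. The log2 ratio of Drd1 to Drd2 did so in 4. It was -0.37 in M4566 (Nestin-Cre HET SN), with -4.45 to -2.90 in the others. For M4569 in Nestin-Cre HOM SN it was -4.02, with -3.71 to -3.60 in the others. For M3587 in AAV-Cre WT SN it was -1.31, with -5.49 to -3.75 in the others. For M3610 in AAV-Cre HET SN it was -6.27, with -5.18 to -4.62 in the others. Among the signalling genes, the HOM effect on Grk3 in PFC differed between the models by -0.33, the 1 called of 36, where 3.54% of all genes were called.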

How the results depend on the processing

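Of 745 values compared with alternatives for the receptors and the ratio, 708 kept their sign and call, 29 gained a call, 3 lost one and 5 changed sign. The likelihood ratio test raised the receptors called from 0 to 10 of 44 genotype tests, from 0 to 6 of 32 tests between regions and from 0 to 5 of 24 between models. Over all genes, calls in the same tests rose from 38 to 4145, from 12 to 1550 and from 627 to 3116. Between the WT mice of the 2 models it gained 1 receptor call and lost 1. The fit of all regions called 1 of 48 genotype tests, beside 1777 calls over all genes. Without M4575, 2 of 12 ratio differences were called instead of 0. Leaving out 1 HOM library of Nestin-Cre PFC at a time gave 0 to 0 calls. The sign changed without M4575 for the STR HOM effect on Drd5 between models (-0.0277, from 0.0249), for Drd5 between STR and PFC of Nestin-Cre WT mice (-0.0148, from 0.00575) and for the ratio in Nestin-Cre HOM STR (0.0178, from -0.0197). It changed for Drd3 between SN and PFC of AAV-Cre WT mice with the mouse as replicate block (-0.0241, from 0.0833) and without M3587 (-0.0941). The replicate block changed no other sign or call of the regional tests in WT mice. For genotype effects between regions it was run only without M4575, where 0 of 32 receptor tests were called. The cause of these differences was not tested.

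The authors' counting settings, other aligners and multi-mapped reads were not run as alternatives. Exon lengths came from the count table, so levels per kilobase of Drd2 and Drd4 carry the missing 3' exon bases. Cell composition was not estimated beyond marker sums. No p here treats the 12 genotype comparisons as 1 family except for the ratio. With 4 to 8 libraries per group, even effects of several standard errors were not called by the quasi-likelihood test. Examples are Gdnf in AAV-Cre STR HOM (0.40 ± 0.09, adjusted p 0.504) and Drd5 in Nestin-Cre PFC HET (-0.49 ± 0.15, adjusted p 0.27). An absence of calls therefore does not show an absence of change. Protein, binding and single-cell levels were not analysed here.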
